A study of Sus scrofa with 70 samples.

Results

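Serpins are a superfamily of proteins that share 1 fold, and most of them trap a serine protease, or less often a cysteine protease, by letting it cut a reactive loop and then holding it in a covalent complex. The genes described here are all those whose name in the deposited pig annotation begins with SERPIN: 30 genes of 17656 named genes. Of these 30, 29 had a value above 0 in at least 1 library, and 20 passed the filter for testing, which asked for a minimum of 1 TPM (a library's transcripts scaled to 1000000 in all) in no fewer than 3 of 30 libraries and was passed by 19796 genes in all. The members were chosen by name alone, though with earlier results of these data known. The filter used the measured values, so a gene high in 1 gland alone could pass it through that gland.

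The samples came from boars that were all 12 months old, with no treatment in the labels: the testis and epididymis, and as accessory glands the bulbourethral, prostate and vesicular gland. The boars belonged to the Banna mini-pig inbred line (BMI) or to the Diannan small-ear pig (DSE). Short-read RNA-seq covered 3 libraries of each breed and gland, 30 in all, and PacBio Iso-seq, which reads whole transcripts, covered 1 library of each breed and gland, 10 in all. The BMI boars come from 1 inbred line, and the labels do not say whether the 3 libraries of a group came from separate boars or whether libraries of the same number share a boar, so p-values measure the spread between these libraries. These are bulk tissues, in which fewer cells of a type and less RNA per cell cannot be told apart.

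In the male tract, serpins meet proteases of the sperm acrosome, of seminal plasma and of the blood vessels that supply each gland. SERPINA5 (protein C inhibitor) binds acrosin and plasminogen activators, SERPINE2 (protease nexin-1) binds thrombin and plasminogen activators, and SERPINF2 (alpha-2-antiplasmin) restrains fibrinolysis. Clade B serpins lack a classical secretion signal and guard the cell interior against its own granule and lysosomal proteases. A few members no longer inhibit proteases: SERPINH1 is a collagen chaperone, SERPINA6 carries corticosteroids, SERPINA7 carries thyroid hormone, SERPINF1 (pigment epithelium-derived factor) and SERPINB5 (maspin) act by other routes.

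The name SERPINA1 (alpha-1-antitrypsin, the main inhibitor of neutrophil elastase) covered a pair of tandem genes in these data, and they are described first because the gland result turns on them. The annotation lists 1 gene (ENSSSCG00000038515, Sscrofa11.1, minus strand, chr7:115583043-115616958), while RefSeq for the same build lists LOC100621494 at chr7:115582698-115595864 and SERPINA1 at chr7:115604282-115616915. They are called the downstream and the upstream copy here, in the order in which the minus strand is read. The Iso-seq isoform of each copy has 5 exons, with 1978 bases for the downstream copy and 1453 for the upstream copy. Over 886 aligned coding bases the copies were 73.3% identical, and they shared 68 of their distinct 31-base words, which is 3.5% of the downstream and 4.8% of the upstream copy, so short reads can be told apart over most of their length.

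The sources place the start of the downstream copy differently. Its Iso-seq isoform, with 7 reads in all, begins at chr7:115595674, and RefSeq's gene begins 190 bases further out, at chr7:115595864, while the starts of the upstream copy lie 43 bases apart (115616958 in Iso-seq and 115616915 in RefSeq). The 250 bases before the outermost of these starts are printed for each copy, from RefSeq's Sscrofa11.1 genome and 5′ to 3′ on the transcribed strand, because the copies, which lie next to each other, were read in different glands. The regions are chr7:115595865-115596114 and chr7:115616959-115617208 on the minus strand. Their best-scoring alignment with free end gaps paired 45 of the 250 bases, 31 of them identical. Unrelated windows were not aligned for comparison, so no likeness of the windows is read from it.
SERPINA1 downstream copy: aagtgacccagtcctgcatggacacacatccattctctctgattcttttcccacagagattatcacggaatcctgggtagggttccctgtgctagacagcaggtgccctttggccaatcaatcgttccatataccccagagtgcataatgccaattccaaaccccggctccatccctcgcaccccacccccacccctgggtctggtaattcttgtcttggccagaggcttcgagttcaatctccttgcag
SERPINA1 upstream copy: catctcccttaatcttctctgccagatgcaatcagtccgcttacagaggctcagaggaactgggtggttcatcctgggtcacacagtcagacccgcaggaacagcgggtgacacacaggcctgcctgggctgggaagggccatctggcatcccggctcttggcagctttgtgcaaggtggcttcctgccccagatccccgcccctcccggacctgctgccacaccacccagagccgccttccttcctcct
Neither window holds AGAACA, the core of an androgen receptor element, TATAAA, or GTTAAT, part of the HNF1 motif of liver genes. For the other genes the 250 bases before the start of the most abundant transcript in the deposited annotation were searched. AGAACA stood in 3 of 21 windows of tested members (both SERPINA1 copies counted) against 10.3% of 19325 windows of tested genes. TATAAA stood in 2 of 21 against 7.8%, and GTTAAT in 2 of 21 against 4.3%. SERPINB11 held TATAAA on the opposite strand 32 bases before its start. Both strands were searched, no matches of different motifs overlapped, and a match describes the sequence only.

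A total of 22 of the 30 members lie in 5 chromosomal groups, and neighbours often led in different glands. On chromosome 7, SERPINA6, SERPINA1, SERPINA11, SERPINA12, SERPINA4, SERPINA5 and SERPINA3-2 span 451.8 kb (chr7:115535697-115987453). Within that span SERPINA6 and SERPINA1 had their highest mean in the epididymis, SERPINA11 in the vesicular gland, and SERPINA5 and SERPINA3-2 in the testis. On chromosome 1, 8 clade B members span 384.4 kb, of which SERPINB8, SERPINB7, SERPINB11 and SERPINB5 were tested. On chromosome 7, SERPINB1, SERPINB9 and SERPINB6 span 91.9 kb, and on chromosome 12, SERPINF2 and SERPINF1 span 25.6 kb and were both highest in the epididymis.

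Summed over the members, serpin transcripts reached 975 to 6301 TPM in the 6 epididymis libraries (median 2504) and 182.1 to 477 in the vesicular gland (median 243). The testis (421 to 689), the prostate gland (313 to 745) and the bulbourethral gland (533 to 987) had medians between these. The counts of members at 1 TPM or more overlapped between glands, from 9 in the poorest prostate library to 17 in the richest epididymis library, and 8 members reached 1 TPM in all 30 libraries. TPM is a share of each library, and in the vesicular gland the 10 most abundant transcripts took 47.4% to 64.7% of it, against 12.7% to 19.9% in the testis.

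**Figure D1:**
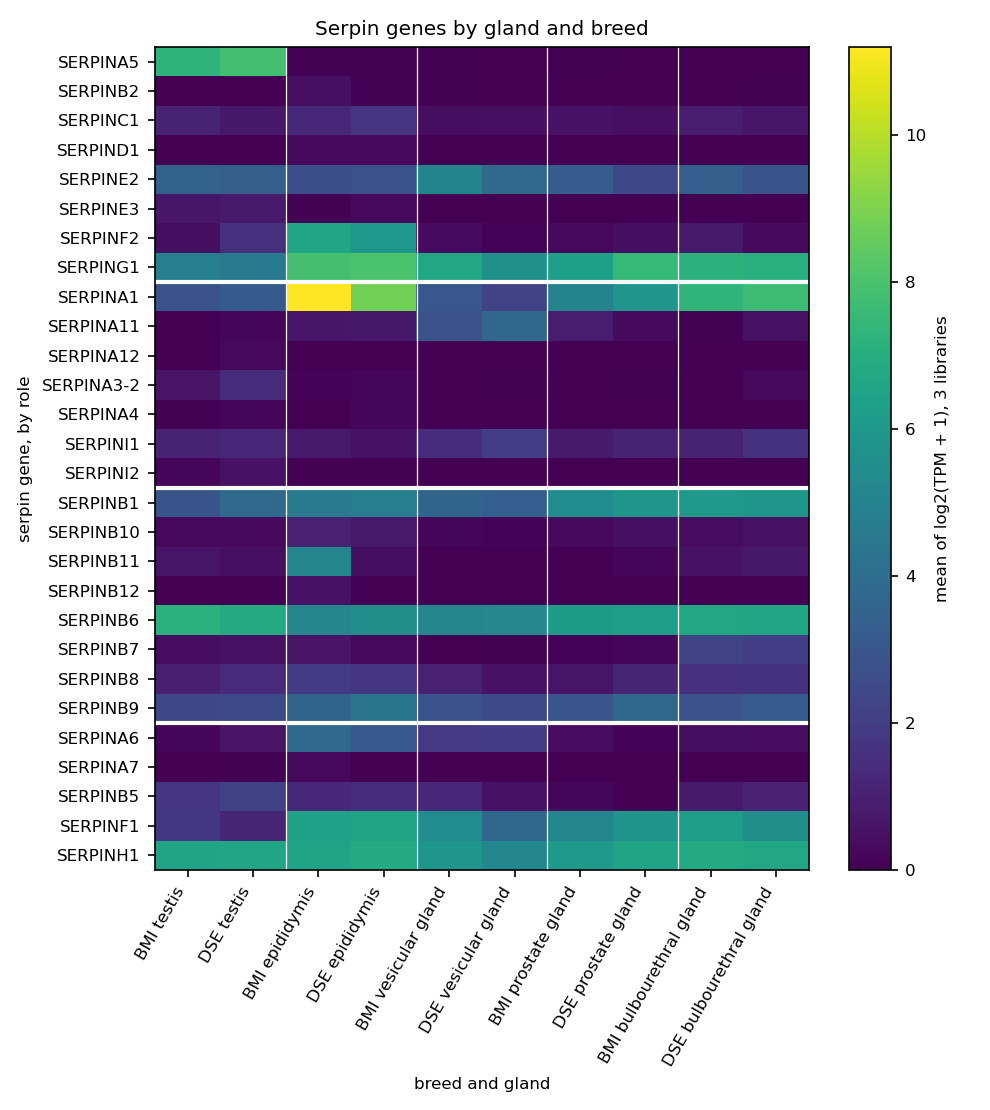
Mean of log2(TPM + 1) over 3 libraries for 28 of the 29 members with any value, by gland and breed (columns) and by role (rows, split by white lines: clotting and fibrinolysis, other extracellular proteases, intracellular clade B, not known as inhibitors). SERPINA5 stands out in both testis columns, SERPINA1 and SERPINF2 in the epididymis columns, and SERPINB11 in the BMI epididymis column.

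Libraries stood apart in each gland. The 4 smooth muscle markers, summed, gave 263 TPM in BMI replicate 1 of the vesicular gland against 769 to 2614 in its other libraries. In the prostate gland they gave 157 and 92.3 TPM in BMI replicates 1 and 3 against 862 to 2152 in the others. The 6 epididymis libraries differed among themselves: GPX5 ranged from 4.42 to 8449 TPM and LCN8 from 1.515 to 9677, both highest in BMI replicate 2, CRISP1 was 21.3 in DSE replicate 1 against 1100 to 2759 in the other 5, and UPK2, a urothelial gene, ranged from 16.3 to 1402. The lowest correlation between libraries of 1 gland, across genes, was 0.84 in the epididymis and 0.892 in the other glands. In the prostate gland BMI replicate 2 had 92.7 TPM of HOXB13 against 264 to 297 in the other 5 libraries and 24.7 TPM of the urothelial gene UPK3A against at most 1.84. In the testis DSE replicate 2 held the fewest spermatid transcripts (25308 TPM summed over 5 genes, against 75365 to 116136). It held the most Leydig and Sertoli cell transcripts (INSL3 at 42359 TPM against 11447 to 23381, CLDN11 at 377 against 122 to 204). Summed, the Sertoli list was at 456 TPM there against 174 to 276, while DMRT1 of that list was not highest (27.9 TPM against 27.8 to 41.2). In the bulbourethral gland skeletal muscle transcripts stood out in BMI replicate 1 and DSE replicate 3 (ACTA1 at 222 and 689 TPM against at most 13.2 in the other 4). Of the 4 hepatocyte markers, TTR and APOB stayed below 1 TPM in all 30 libraries and ALB did not pass 2.27 TPM, while APOA1 carried the summed list (41.4 to 682 TPM in the epididymis and 60.7 to 124 in the bulbourethral gland). The labelled glands otherwise carried their own markers, with MSMB at 88607 TPM or more in every prostate library and the summed spermatid list at 25308 TPM or more in every testis library.

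Each gland was compared with the mean of the other 4 in a limma fit of log2(TPM + 1) over all 30 libraries. A gene was called at a Benjamini-Hochberg adjusted p below 0.05 over all tested genes together with a log2 difference of at least 1 in size, and the differences below are on that log2(TPM + 1) scale, which understates changes of genes near 0 TPM. Over all tested genes the median log2 difference was 0.31 in the testis, 0.25 in the epididymis, -0.69 in the vesicular gland, -0.28 in the prostate gland and -0.05 in the bulbourethral gland, so each member's difference is also given relative to it. Of 20 tested members, 16 were called in at least 1 gland.

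In the testis 3 members were higher and 7 were lower, and the others did not pass. Across all genes tested, 34.6% were called higher and 12.7% lower there. SERPINA5 (chr7:115799450-115810830, plus strand) marked the gland. The 6 testis libraries gave 158, 134 and 172 TPM in BMI and 130.2, 369 and 258 TPM in DSE, while none of the other 24 libraries passed 0.135 TPM. Every testis library was above every other library, with log2 difference 7.53 ± 0.13 SE, 7.22 relative to the median, adjusted p = 5.3e-24. Only these 6 testis libraries reached the 1 TPM of the filter, so the gene was testable only through the gland where it is high. The highest of them was DSE replicate 2, the library with the fewest spermatid and most Leydig and Sertoli cell transcripts, and without it the log2 difference was 7.36 ± 0.10 SE. No neighbours among the remaining glands were called apart in this gene, and SERPINA5 also counts as lower in each of those 4 glands only because the testis enters the mean they are set against.

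SERPINB6, which inhibits trypsin-like and granule proteases inside cells, was the next highest serpin of the testis. It was measured at 101 to 147 TPM (median 136) in the testis and 28.1 to 44.7 TPM (median 34) in the vesicular gland, and the testis exceeded most but not all libraries of the bulbourethral and prostate glands. The testis call (log2 difference 1.18 ± 0.17 SE, 0.87 relative to the median, adjusted p = 7e-07) was lost with median-of-ratios scaling (0.93) and when transcripts were summed by gene name in place of gene identifier (0.36). Neighbours in its order of glands, from testis through bulbourethral, prostate and epididymis to vesicular gland, were not called apart, but with median-of-ratios scaling the epididymis was called below the prostate gland (-1.32, adjusted p = 9.7e-05, against -0.82 without it). An Iso-seq gene antisense to SERPINB6 shares 45.4% of its 31-base words, and no source used here states that reads were counted by strand, so part of its level may belong to that gene. SERPINB5 was low throughout but higher in the testis, at 1.12 to 5.84 TPM (median 2.81) against 0 to 0.431 TPM (median 0) in the prostate gland (log2 difference 1.16 ± 0.27 SE, 0.85 relative to the median, adjusted p = 0.00048). The testis and the prostate libraries of SERPINB5 did not overlap, while those of testis and epididymis did, and the call was lost without replicate 1 (0.96).

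Of the 7 members that were lower in the testis, SERPINF1, SERPINA1 and SERPING1 had the largest log2 differences. SERPINF1, an antiangiogenic factor of stroma and epithelium, was at 0.667 to 3.12 TPM (median 1.85) in the testis and below every library of the other glands (log2 difference -4.12 ± 0.45 SE, -4.43 relative to the median, adjusted p = 9.4e-09). SERPING1 (C1 inhibitor, which restrains complement C1 and plasma kallikrein) was at 16.6 to 33.5 TPM (median 26.5) (log2 difference -2.30 ± 0.33 SE, -2.61 relative to the median, adjusted p = 9.6e-07), and only its highest testis library stood above the lowest library of another gland, a vesicular one at 33 TPM. SERPINA1 was at 5.09 to 11.4 TPM (median 6.67) (log2 difference -3.37 ± 0.51 SE, -3.68 relative to the median, adjusted p = 1.7e-06), close to the vesicular gland. SERPINB1, SERPINA6 and SERPINA11 were also lower, with log2 differences from -1.58 to -1.10. Of these, SERPINA6 was not called without replicate 3, and SERPINA11 was not called without BMI prostate replicate 2.

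In the epididymis 8 members were higher and 1 was lower, where 15.1% of all genes were called higher and 6.56% lower. With median-of-ratios scaling the counts were 7 higher and 3 lower, where 1696 of all 19796 tested genes were called higher and 1812 lower. SERPINF2 (chr12:47933864-47942287, plus strand), the principal plasmin inhibitor of blood, was the most gland-bound of the members higher there. Its epididymis libraries gave 38.7, 211 and 113 TPM in BMI and 337, 5.86 and 105 TPM in DSE, and no other library passed 2.86 TPM. The spread inside the epididymis was wide (5.86 to 337 TPM), yet every epididymis library stood above every other library (log2 difference 5.79 ± 0.43 SE, 5.53 relative to the median, adjusted p = 7.6e-11). The testis came next, at 0.265 to 2.86 TPM (median 0.683), and was not called apart from the bulbourethral gland. Within the epididymis the 4 smooth muscle markers, summed, were highest in DSE replicate 2 and BMI replicate 1 (13343 and 6728 TPM), which had the least SERPINF2. They were lowest in BMI replicate 2 and DSE replicate 1 (816.5 and 1584 TPM), which had the most, and their part was not tested.

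SERPINA1 was the most abundant serpin of any gland. Its epididymis libraries gave 1689, 1387 and 5465 TPM in BMI and 34.4, 2062 and 1264 TPM in DSE, so DSE replicate 1, the library with the least CRISP1, fell below all 6 bulbourethral and 4 of 6 prostate libraries. The study's quality table also lists that library with the lowest transcript integrity and the highest share of unmapped reads among its RNA-seq libraries, and the part of RNA quality in its values was not tested. The epididymis was called higher (log2 difference 5.37 ± 0.51 SE, 5.11 relative to the median, adjusted p = 4.8e-09), and in its order of glands the epididymis, the bulbourethral gland (132.3 to 223 TPM) and the prostate gland (8.83 to 78.3) were each called apart from the next. The prostate gland was called apart from the testis, and the testis was not called apart from the vesicular gland.

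Split by copy, the epididymis and the bulbourethral gland carried different genes under the name SERPINA1. The downstream copy reached 15.8 to 5095 TPM (median 1449) in the epididymis and was at or below 0.565 TPM in every bulbourethral library. The upstream copy reached 132 to 222 TPM (median 183) in the bulbourethral gland and 5.87 to 78.3 TPM (median 56.5) in the prostate gland, and at most 17.8 TPM in the epididymis. The upstream copy made up 99.6% to 99.9% of the SERPINA1 signal in the 6 bulbourethral libraries, 66.4% to 99.96% in the prostate libraries, and 0.0398% to 0.73% in 5 of the 6 epididymis libraries, the exception being DSE replicate 1 with 51.7%. In a fit with the copies apart, the downstream copy was higher in the epididymis (log2 difference 8.64 ± 0.56 SE, adjusted p = 5.4e-12) and lower in the bulbourethral gland (-3.27 ± 0.56, adjusted p = 2.5e-05). The upstream copy was higher in the bulbourethral gland (4.74 ± 0.42, adjusted p = 1.8e-09) and in the prostate gland (2.03 ± 0.42, adjusted p = 0.0003). It was lower in the epididymis (-1.75 ± 0.42, adjusted p = 0.001). Each lower call is set against a mean that holds the gland where that copy is high. Between pairs of glands in that fit, the upstream copy was called higher in the epididymis than in the vesicular gland (1.25, adjusted p = 0.043). Its epididymis and testis were not called apart. The downstream copy was called higher in the vesicular than in the bulbourethral gland (2.02, adjusted p = 0.019). Its bulbourethral gland was not called apart from the testis or the prostate gland. An Ensembl transcript with 9 exons that spans both copies followed the downstream copy, with 0.775 to 367 TPM in the epididymis and at most 0.703 TPM elsewhere. The prostate library with the smallest upstream share was BMI replicate 2, the library that also stood apart in HOXB13.

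**Figure D2:**
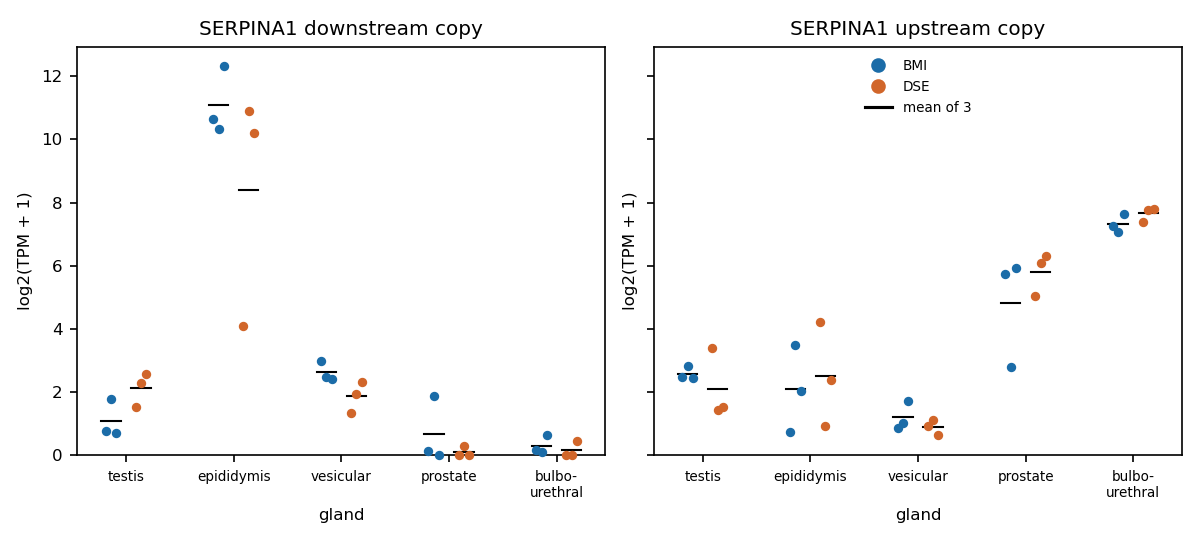
log2(TPM + 1) of the downstream (left) and upstream (right) SERPINA1 copy in each of 30 libraries, by gland, with BMI and DSE in separate colours and black bars for the mean of 3 libraries. The downstream copy lies high in 5 of 6 epididymis libraries, and the upstream copy lies high in all 6 bulbourethral and 5 of 6 prostate libraries.

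SERPINA6 (corticosteroid-binding globulin) gave 19.6, 1.62 and 52.6 TPM in BMI epididymis and 2.83, 15.2 and 9.04 TPM in DSE epididymis (log2 difference 2.73 ± 0.36 SE, 2.48 relative to the median, adjusted p = 9.6e-07). The urothelial gene UPK2 and the summed urothelial list ran in the same order over these 6 libraries, UPK2 from 16.3 to 1402 TPM, and UPK2 was at 31.2 to 113 TPM in the vesicular gland, and their part was not tested. The vesicular gland followed with 1.2 to 4.39 TPM (median 3.4), overlapping the 2 lowest epididymis libraries, and both were called above the testis, the prostate gland and the bulbourethral gland. The step between epididymis and vesicular gland (log2 difference 1.53) was not called with median-of-ratios scaling (0.67, adjusted p = 0.28). SERPINB11, a clade B serpin of epithelia, exceeded 1.09 TPM in 2 libraries only, both of BMI: its BMI epididymis libraries gave 84.3, 0.124 and 442 TPM, its DSE epididymis libraries 0.0673, 0.63 and 0.364 TPM, and no library of another gland passed 1.09 TPM. The epididymis call (log2 difference 2.45 ± 0.59 SE, 2.20 relative to the median, adjusted p = 0.0011) was lost without replicate 1 or without replicate 3, where adjusted p rose to 0.062 and 0.078. Of the 4 urothelial markers, UPK2 was highest in the 2 libraries with SERPINB11 (1071 and 1402 TPM), but it was also at 605 TPM in DSE replicate 2, where SERPINB11 was at 0.63. UPK3A (31 TPM) and UPK1B (16.4 TPM) were highest in DSE replicate 3 and UPK1A stayed at or below 0.63 TPM in the epididymis. The summed list, carried by UPK2, was highest in the 2 libraries with SERPINB11 (1097 and 1425 TPM, against 43.6 to 638 in the other 4), and its part was not tested.

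SERPING1, SERPINF1 and SERPINB9 were also higher in the epididymis, with log2 differences from 1.08 to 2.12. SERPING1 was at 117 to 601 TPM (median 244) and was the highest serpin of the vesicular and prostate glands as well, with 33 to 182 TPM (median 74.8) and 37.7 to 298 TPM (median 112). SERPINF1 was at 11 to 297 TPM (median 117). BMI replicate 1, the library with the most SERPING1 and SERPINF1, also had the most endothelial and blood signal, with PECAM1 at 274 TPM against 16.7 to 95.6 in the other 5 epididymis libraries and HBB at 2644 against 99.3 to 1610. DSE replicate 1 held nearly as much SERPINF1 (268 against 297 TPM) with PECAM1 at 33.4 and the lowest HBB, 99.3. The 4 fibroblast markers, summed, were also highest in BMI replicate 1 (4304 TPM, against 251 to 1945) and ran in the same order as SERPING1 over the 6 epididymis libraries. The part of these cell types in the levels was not tested. SERPINB9, which inhibits granzyme B, was not called under median-of-ratios scaling (log2 difference 0.61), without replicate 1 (0.91) or without replicate 2 (0.95), and SERPINF1 was not called without replicate 1 (1.24).

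**Figure D3:**
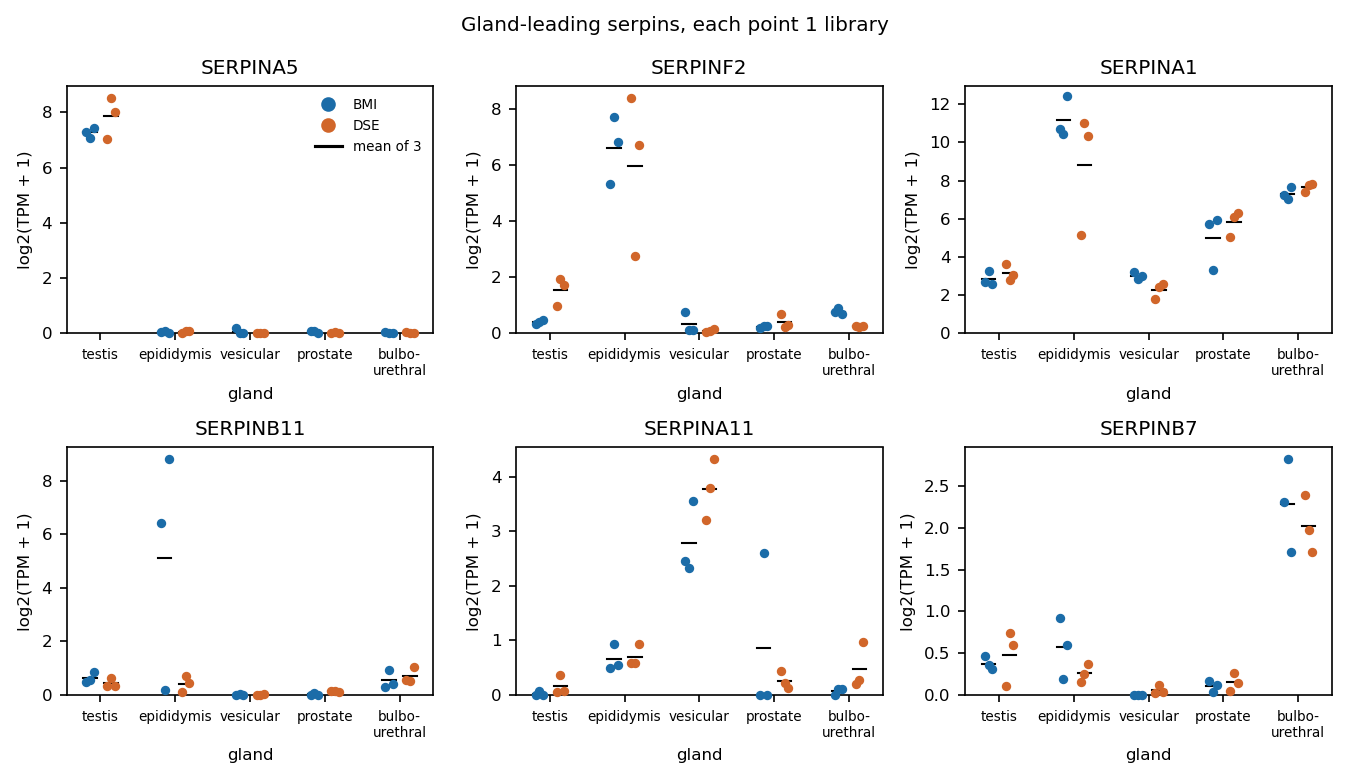
log2(TPM + 1) of 6 serpins that lead in a gland, each point 1 of 30 libraries, BMI and DSE in separate colours and black bars for the mean of 3 libraries; the vertical scales differ. The 6 testis points of SERPINA5 and the 6 epididymis points of SERPINF2 lie above all other points, while only 2 BMI epididymis points are high for SERPINB11.

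In the vesicular gland 2 members were higher and 6 lower, where 2.95% of all genes were called higher and 30.1% lower. With median-of-ratios scaling, which removes much of the -0.69 shift, there were 4 higher and 3 lower, so the split depends on the scaling. With it, 1434 of all 19796 tested genes were called higher and 2380 lower. SERPINA11, a clade A serpin of the chromosome 7 group, gave 4.45, 4.02 and 10.7 TPM in BMI and 8.23, 12.8 and 18.9 TPM in DSE. The only library elsewhere that reached the lower end of that range was BMI prostate replicate 2 (5.03 TPM), and the next highest was at 0.961 TPM (log2 difference 2.87 ± 0.25 SE, 3.56 relative to the median, adjusted p = 1.3e-09). SERPINE2 was at 10.8 to 38.4 TPM (median 22.7) (log2 difference 1.42 ± 0.32 SE, 2.11 relative to the median, adjusted p = 0.00038) and was called apart from the testis, the next gland in its order. BMI prostate replicate 2 again stood among the vesicular values, at 30.1 TPM, while the other 5 prostate libraries held 3.37 to 5.34. Lower there were SERPINA1, SERPINA5, SERPINF2, SERPINB1, SERPINB6 and SERPINH1. The last 3 of these lay 0.32 to 0.77 below the median of all genes and were not called with median-of-ratios scaling, and the first 3 were called under both.

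In the prostate gland 1 member was higher and 4 lower, where 3.7% of all genes were called higher and 12.8% lower. SERPINB1, the cytosolic inhibitor of neutrophil elastase, was at 20.8 to 67.4 TPM (median 59.9) (log2 difference 1.31 ± 0.25 SE, 1.59 relative to the median, adjusted p = 0.00011), and its lowest library was BMI replicate 2. The bulbourethral gland held still more of it, at 41 to 80.8 TPM (median 63.9), and was not called apart from the prostate gland. Lower in the prostate gland were SERPINA5, SERPINF2, SERPINA6 and SERPINB5, each of which was at 1.19 TPM or less in all 6 libraries. Without BMI prostate replicate 2 the counts were 1 higher and 5 lower, and without replicate 3 SERPINA6 and SERPINF2 were not called.

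In the bulbourethral gland 4 members were higher and 3 lower, where 8.45% of all genes were called higher and 12% lower. SERPINB7 (megsin, a clade B serpin) gave 3.96, 6.06 and 2.27 TPM in BMI and 4.26, 2.92 and 2.27 TPM in DSE. No other library passed 0.898 TPM, so its groups did not overlap (log2 difference 1.90 ± 0.13 SE, 1.95 relative to the median, adjusted p = 9e-12). Only its bulbourethral libraries reached the 1 TPM of the filter, so it was testable only through the gland where it is high. SERPINA1 (log2 difference 2.22 ± 0.51 SE, 2.27 relative to the median, adjusted p = 0.00071) was carried there by the upstream copy, as given above. SERPINB1 (log2 difference 1.68 ± 0.25 SE, 1.73 relative to the median, adjusted p = 3.9e-06) and SERPINF1 (log2 difference 1.40 ± 0.45 SE, 1.45 relative to the median, adjusted p = 0.012) were also higher, and SERPINF1 was at 30.9 to 122 TPM (median 60). The library with the most SERPINF1, BMI replicate 3, also had the most fibroblast signal (1752 TPM summed over 4 markers), and the library with the least, DSE replicate 2, had the least (327 TPM), and its part was not tested. SERPINA5, SERPINF2 and SERPINA6 were lower, with log2 differences from -1.91 to -1.12. Without replicate 3, SERPINF1 (0.69), SERPINF2 and SERPINA6 were not called, and SERPINA6 was not called without replicate 1 either. Neither of the libraries with skeletal muscle transcripts was the highest for SERPINB7, and without either one the counts stayed at 4 and 3.

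SERPINH1, the endoplasmic reticulum chaperone of procollagen, was among the 3 most abundant serpins of 4 glands. By mean log2(TPM + 1) it ran from 27.8 to 87 TPM (median 44.4) in the vesicular gland to 73.2 to 175 TPM (median 106) in the bulbourethral gland, and the epididymis was at 43.1 to 259.7 TPM (median 94.9), and no neighbours in its order were called apart. Of the 15 tested collagens and collagen-modifying enzymes that it works with, 8 were higher in the epididymis and none lower, 11 were lower in the testis and none higher, 5 were higher in the bulbourethral gland, 2 were lower in the vesicular gland and none was called in the prostate gland. Across all genes 15.1% were higher in the epididymis, 12.7% lower in the testis, 8.45% higher in the bulbourethral gland and 30.1% lower in the vesicular gland, so the list lay above the background in the first 3 of these and below it in the vesicular gland. The summed fibroblast markers had medians of 859.5 TPM in the epididymis, 692 in the bulbourethral, 443.5 in the prostate and 315.8 in the vesicular gland. Their median was 100.3 TPM in the testis. COL1A1 is on both lists, and the part of fibroblasts was not tested. In the testis COL1A1 had a log2 difference of -3.32. SERPINH1 was at 70.8 to 142 TPM (median 82.8) there, within the range of the prostate gland (54.3 to 145.4). SERPINH1 itself was called in the vesicular gland alone (-1.01), and not without replicate 1 (-0.81), without replicate 3 (-0.91), or without DSE testis replicate 2 or DSE bulbourethral replicate 3 (-0.99 for each).

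By role, 3 of 6 tested serpins of clotting and fibrinolysis were higher in the epididymis (SERPINF2 and SERPING1 among them) and 1 was lower, with a median log2 difference of 1.29 beside 0.25 for all genes. In each of the other 4 glands 2 of the 6 were lower, and 1 was higher in the testis and 1 in the vesicular gland. The 2 lower in the vesicular, prostate and bulbourethral glands were SERPINA5 and SERPINF2, which are set there against a mean that holds the testis and the epididymis. SERPINF2 was called in no pair of glands without the epididymis. Of 6 intracellular clade B serpins, 2 were higher and none lower in both the epididymis and the bulbourethral gland, 1 was higher in the prostate gland, 1 was higher and 1 lower in the testis, and 2 were lower in the vesicular gland, close to the 30.1% of all genes lower there. Of 4 extracellular serpins of other proteases, 2 were lower in the testis, 1 was higher and 1 lower in the vesicular gland, and 1 was higher in the epididymis and 1 in the bulbourethral gland. Of 4 members not known as protease inhibitors, 2 were higher in the epididymis, 2 were lower in the prostate gland, 1 was higher and 2 lower in the testis, 1 was higher and 1 lower in the bulbourethral gland, and 1 was lower in the vesicular gland. With groups of 4 to 6 members these counts are descriptions, to be read beside the shares of all genes given for each gland. The tested members called in no gland were SERPINA3-2, SERPINB8, SERPINC1 and SERPINI1, none of which passed 7.31 TPM in any library. SERPINI1 (neuroserpin) had a log2 difference of 0.72 in the vesicular gland, 1.41 relative to the median, and was called higher there with median-of-ratios scaling (1.33, adjusted p = 2.8e-07) and with a pseudocount of 0.1 (1.20, adjusted p = 0.0038). With that pseudocount it was also called lower in the epididymis (-1.33, adjusted p = 0.0027). SERPINC1 (antithrombin) shares 61.1% of its 31-base words with the overlapping gene ZBTB37, and SERPINA3-2 shares 12.1% with other genes, so their values are uncertain. SERPINA3-2 passed the adjusted p in the testis (2.9e-08) with a log2 difference of 0.92, under the size required. It reached the 1 TPM of the filter in testis libraries alone. The 10 members not tested were SERPINA12, SERPINA4, SERPINA7, SERPINB10, SERPINB12, SERPINB13, SERPINB2, SERPIND1, SERPINE3 and SERPINI2. SERPINB13 had no value above 0, and the highest library of each of the other 9 lay between 0.27 and 4.02 TPM.

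Across the 10 pairs of glands, 77 of 200 member tests (38.5%) were called. The epididymis and the vesicular gland differed in 14 of 20 members, where 36.5% of all genes were called. With median-of-ratios scaling that count fell to 6 members (15.2% of all genes), SERPINA1, SERPINF2, SERPINB11, SERPINA11, SERPINE2 and SERPINI1, while each other pair moved by at most 2 members. The epididymis differed from the bulbourethral gland in 8 members (21.4% of all genes) and from the prostate gland in 6 (21.3%). The testis differed from the epididymis in 11 members (51% of all genes), from the vesicular gland in 9 (52.9%), from the prostate gland in 7 (48.9%) and from the bulbourethral gland in 7 (49.1%). The vesicular gland differed from the bulbourethral gland in 8 members (27.7%) and from the prostate gland in 5 (14.8%). The prostate and the bulbourethral gland differed in 2 members, where 7.65% of all genes were called.

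The proteases that serpins act on were compared in the same way. Of 20 tested serine proteases, 4 were higher and 9 lower in the testis, 8 higher and 2 lower in the epididymis, 3 higher and 6 lower in the vesicular gland, 4 higher and 1 lower in the prostate gland, and 6 higher and 1 lower in the bulbourethral gland. The shares of all genes higher and lower were 34.6% and 12.7%, 15.1% and 6.56%, 2.95% and 30.1%, 3.7% and 12.8%, and 8.45% and 12%, in the same order of glands. The 6 of 20 lower in the vesicular gland thus equalled the background, and the 4 of 20 higher in the testis lay below it. In the testis, acrosin (ACR), the acrosomal protease that SERPINA5 can inhibit, had the largest log2 difference, 8.19, and the epithelial protease PRSS8 (prostasin) the smallest, -6.64. In the epididymis the plasminogen activator PLAU had the largest log2 difference, 2.13, and factor VII (F7) the smallest, -1.92. Of 10 cysteine cathepsins and caspases, which some clade B serpins inhibit, 6 were higher and none lower in the epididymis, with CTSK at 1.61, and 4 were lower and 1 higher in the vesicular gland. Of 12 serpin cofactors and receptors, 5 were higher in the epididymis, with PROCR, the protein C receptor, at 3.10, and 4 were higher and 3 lower in the testis. Of 9 protease inhibitors of other families, 5 were lower in the testis, with SPINT1 at -6.17, while A2M, a broad plasma inhibitor, had 6.82, and in the epididymis 5 were higher and none lower. Of these 9, 4 were higher and 1 lower in the bulbourethral gland, 3 were lower in the vesicular gland, and 2 were higher in the prostate gland.

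The breeds were compared within each gland over 6 libraries, and the limma fit called no member in any gland. Among all genes the calls were few, 0.197% in the testis, 0% in the epididymis, 0.0152% in the vesicular gland, 0.0859% in the prostate gland and 0.0253% in the bulbourethral gland. Unadjusted p was below 0.05 for 5 of 20 members in the testis, 5 in the vesicular gland, 2 in the prostate gland, 1 in the bulbourethral gland and 0 in the epididymis. The shares of all genes below it were 12.6% in the testis, 15.4% in the vesicular gland, 26.2% in the prostate gland, 6.07% in the bulbourethral gland and 2.44% (483 genes) in the epididymis, so the prostate count of members lay below that of all genes. Within the prostate gland SERPINB11 had the smallest adjusted p (DSE minus BMI 0.12 ± 0.03 SE, adjusted p = 0.10). Within the bulbourethral gland it was SERPINF2 (-0.52 ± 0.06, adjusted p = 0.14). SERPINA6 had the smallest in the testis (0.46 ± 0.10, adjusted p = 0.19) and SERPINB5 in the vesicular gland (-0.77 ± 0.19, adjusted p = 0.22). All of these were at low levels. In the prostate gland SERPINB11 did not pass 0.12 TPM in any library, and in the bulbourethral gland SERPINF2 gave 0.681, 0.86 and 0.614 TPM in BMI and 0.202, 0.186 and 0.211 TPM in DSE.

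In the vesicular gland BMI and DSE libraries did not overlap for 7 of 20 members, where 22.9% of all genes did not overlap. DSE was lower for 6 of these. The median over all genes was itself -0.27 in this comparison, and the median over the members turned from -0.19 to 0.06 with median-of-ratios scaling. SERPINF1 gave 36.1, 72.6 and 29.8 TPM in BMI and 7.93, 22.2 and 10.1 TPM in DSE, a log2 difference of -1.73 ± 0.51 (adjusted p = 0.25). SERPINE2 gave 25, 38.4 and 35.4 TPM in BMI and 10.8, 10.9 and 20.4 TPM in DSE (-1.21 ± 0.31, adjusted p = 0.23). SERPING1 gave 79.5, 182 and 76.3 TPM in BMI and 44.9, 73.3 and 33 TPM in DSE (-1.10 ± 0.47, adjusted p = 0.35). These differences did not pass the threshold, and with median-of-ratios scaling they were -1.26, -0.73 and -0.59. Of the 4 fibroblast markers, COL1A1 moved the same way without overlap (294, 332 and 172 TPM in BMI against 45.9, 96.2 and 47.8 in DSE), while DCN (122 to 338 against 54.9 to 134), LUM (19.4 to 58.9 against 10.2 to 33.5) and PDGFRA (4.08 to 7.98 against 1.12 to 6.27) overlapped. Summed, the fibroblast list did not overlap (361 to 738 TPM in BMI against 118 to 270 in DSE), nor did the lists for general epithelium (776 to 954 against 558 to 711), basal and squamous epithelium (37 to 68.1 against 25.1 to 29.6) and urothelium (86.7 to 170.2 against 58.3 to 79.8), all higher in BMI. The lists for epididymal epithelium (12.4 to 19.7 TPM in BMI against 2.6 to 4.7 in DSE) and prostate epithelium (20.8 to 33.4 against 11.8 to 19.4) did not overlap either. The skeletal muscle list went the other way without overlap, at 0.29 to 2.17 TPM in BMI against 4.35 to 17.7 in DSE. The part of these cells was not tested. In the testis 4 members did not overlap (22.9% of all genes), with SERPINF2 at 0.265, 0.316 and 0.395 TPM in BMI and 0.971, 2.86 and 2.32 TPM in DSE (1.15 ± 0.26, adjusted p = 0.21) and SERPINB1 at 6.86, 6.24 and 6.29 TPM in BMI and 8.55, 20.8 and 13.7 TPM in DSE (0.96 ± 0.33, adjusted p = 0.35). Both were highest in DSE replicate 2, the spermatid-poor library, without which the differences were 0.95 (adjusted p = 0.20) and 0.67 (adjusted p = 0.32). The Leydig cell marker INSL3 did not overlap between the breeds either, at 11447 to 12257 TPM in BMI and 16566 to 42359 in DSE, nor did the summed Leydig list (18526 to 21728 TPM against 23887 to 63338), while CYP17A1, CYP11A1 and STAR overlapped one by one. Their part was not tested. In the prostate gland 2 members did not overlap (31.5% of all genes), in the bulbourethral gland 3 (9.63%), and in the epididymis none (5.36%).

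On the log2 scale the widest difference between breeds was that of SERPINB11 in the epididymis, 175.6 TPM in BMI and 0.354 in DSE, a log2 difference of -4.71 ± 2.23. The limma fit gave an unadjusted p of 0.085 and an adjusted p of 1, and 1 of the 3 BMI libraries was at 0.124 TPM, within the DSE range. In a fit that shares 1 spread over all 30 libraries it was called, at an adjusted p of 0.031. The test of whether the breed difference varied between glands gave no member (2.94% of all genes were called), with SERPINB11 having the smallest adjusted p, 0.19.

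**Figure D4:**
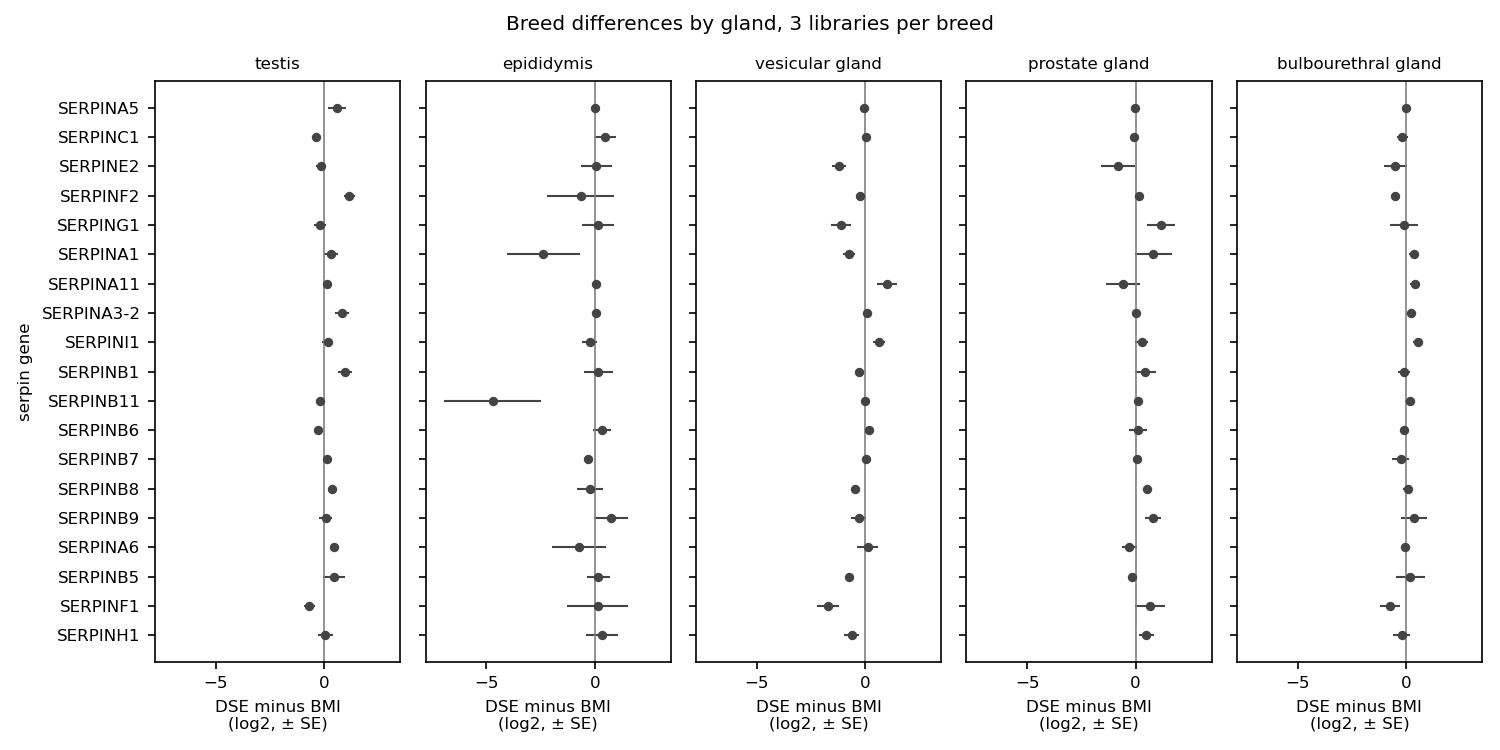
Difference of mean log2(TPM + 1), DSE minus BMI, for 19 of the 20 tested members in each gland, with bars of 1 standard error from the limma fit over 3 libraries a breed. No point passed the adjusted threshold, and the bars are widest in the epididymis, where SERPINB11 lies at -4.71.

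Iso-seq measured the same glands by a second assay, with 1 library for each breed and gland and therefore no test. Over the deposited isoforms, the 10 libraries held 231413 to 458697 full-length reads, fewer than the study lists before clustering and filtering. Reads lost in those steps are outside the rates and intervals given here. Members took 2771 of the 3468110 reads kept, or 799 reads in 1000000 (RPM, exact Poisson 95% interval 770 to 829, counting error only). These reads formed 52 isoforms of 18 members, 38 of which (73.1%) fell outside the classes that match an annotated transcript fully or in part. No fusion isoform held a member, and 5 isoforms antisense to SERPINI2, SERPINE2 and SERPINB6 held 11 reads. Of 14 tested members with at least 20 reads, 9 had their highest rate in the gland where RNA-seq was highest.

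The serpins bound to 1 gland in RNA-seq were read there in Iso-seq too, for SERPINA5, SERPINF2 and SERPINA11. SERPINA5 had 60 reads in the BMI testis (95% interval 45.8 to 77.2) and 61 in the DSE testis (46.7 to 78.4), and 0 in the other 8 libraries. SERPINF2 had 72 reads in the BMI epididymis (56.3 to 90.7), 220 in the DSE epididymis (192 to 251), 1 in the BMI bulbourethral gland and 0 elsewhere. SERPINA11 had 4 and 7 reads in the BMI and DSE vesicular gland and 0 in the other 8, and SERPINF1 had 186 and 103 in the BMI and DSE epididymis and 0 in both testis libraries. SERPINB7, whose bulbourethral libraries lay above all others in RNA-seq at 2.27 to 6.06 TPM, had 0 reads in all 10 libraries. By the one-sided limit of 3 counts, a count of 0 allows up to 6.54 to 13 RPM of the reads kept in isoforms, depending on the library.

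The upstream copy of SERPINA1 had 33 reads in the BMI and 8 in the DSE bulbourethral gland, of 47 in all, and 1 and 3 reads in the BMI and DSE epididymis. The downstream copy had 7 reads over the 10 libraries, of which 1 fell in the BMI epididymis (2.18 RPM, 95% interval 0.0552 to 12.2) and 0 in the DSE epididymis (at most 13 RPM by the limit of 3 counts), beside RNA-seq values of 15.8 to 5095 TPM. Iso-seq thus did not show the excess of the downstream copy that RNA-seq gave in the epididymis, where the copies together had 5 reads. SERPINB11 had 0 reads in any library, beside 84.3 and 442 TPM in a pair of BMI epididymis libraries. Which boar or region of the gland gave each Iso-seq library is not given in the sources used here, and the assays' difference was not tested.

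**Figure D5:**
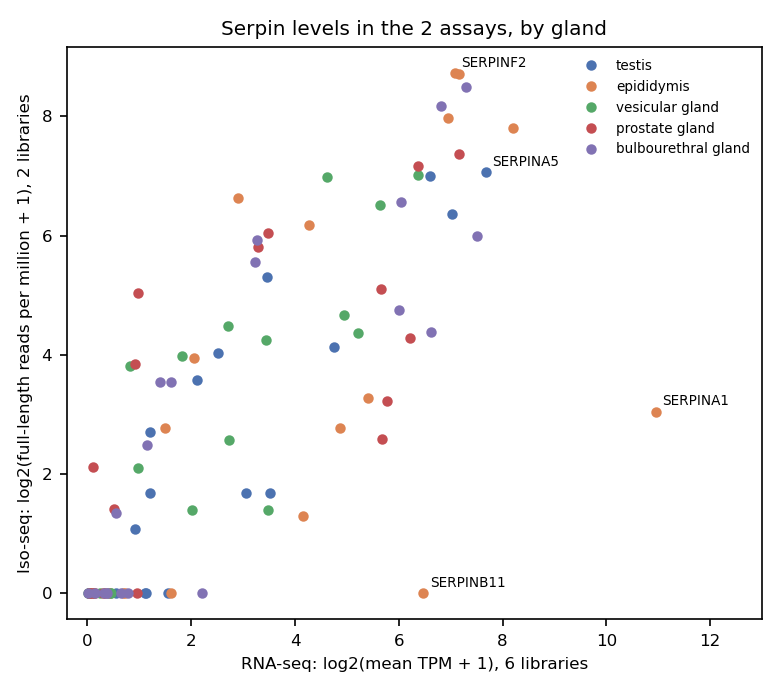
log2(mean TPM + 1) over 6 RNA-seq libraries (x axis) against log2(RPM + 1) of full-length reads over 2 Iso-seq libraries (y axis) for 19 of the 20 tested members, 1 point per member and gland, coloured by gland. SERPINA1 and SERPINB11 in the epididymis lie far below the other points of like TPM, at 5 and 0 reads over the 2 epididymis libraries.

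The authors counted short reads on Ensembl transcripts merged with Iso-seq isoforms. Iso-seq isoforms held over 90% of the TPM of 8 members, among them SERPINB6 (99.1%), SERPINH1 (99.4%), SERPINA5 (98.8%) and SERPINA1 (94.2%), and 15.2% of SERPINF2, 2.83% of SERPING1 and 1.69% of SERPINF1. The leading SERPINA5 isoform (95 of 121 reads) has 5 exons and a predicted reading frame of 408 residues. The leading SERPINH1 isoform (575 of its 617 reads) has 5 exons, a predicted reading frame of 285 residues and a predicted stop that would expose it to nonsense-mediated decay, as does the upstream SERPINA1 isoform, with 317 residues. The leading SERPINF2 isoform (267 of 293 reads) has 10 exons and a frame of 487 residues, and the leading SERPING1 isoform (576 of 581 reads) has 7 exons and 491 residues.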

How the data were processed

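RNA-seq of 30 libraries and Iso-seq of 10 were used. The authors trimmed the short reads, aligned them with STAR 2.7.10a to Sscrofa11.1 and quantified Ensembl 107 transcripts merged with Iso-seq isoforms using Salmon 1.9.0, and they deposited TPM per transcript. The deposited Iso-seq table gives counts of full-length reads per isoform, classified by SQANTI3. The labels name rRNA depletion and the methods poly-T beads for the RNA-seq libraries. The deposited TPM hold no counts, and the read totals that the study lists for each RNA-seq library were not used here. Iso-seq intervals (two-sided) and limits for a count of 0 (3 counts, one-sided) cover counting error only. Both are scaled to the reads that the deposited isoforms hold, so reads lost before that step are not covered.

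TPM were summed by gene identifier, the filter kept genes that reached 1 TPM in 3 or more libraries, and log2(TPM + 1) was fitted with limma 3.58.1 in R 4.3.3 (eBayes with trend, two-sided tests). A fit was made over all 30 libraries for glands and for the interaction, and over 6 libraries for breeds within a gland, with Benjamini-Hochberg adjustment over all genes tested. The steps were tested on simulated data. The alternatives were a pseudocount of 0.1, no filter, median-of-ratios size factors, no trend, sums by gene name, Ensembl transcripts alone, 1 fit for the breeds, a replicate block, and leaving out each replicate. Of 375 introns of serpin transcripts in the deposited annotation, 354 (94.4%) began with GT or GC and ended with AG in RefSeq's Sscrofa11.1 genome, from which the sequences come, with 31-base words counted over 147664 transcripts.

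For each gland, up to 3 called members in each direction, the 3 most abundant members and, between breeds, the member with the smallest adjusted p were named, and others were added after their values were seen. The members and the lists were chosen with earlier results of these data known. Small RNA libraries were not used here. Some items counted in the totals are not reported here by name or in the plots.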

Additional observations from a re-analysis of the deposited data

Results flagged for a closer look

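For 2 members, every DSE library lay on one side of every BMI library in 1 gland and on the other side in another gland. For SERPINB8 the DSE minus BMI difference of log2(TPM + 1) was 0.51 in the prostate gland and -0.48 in the vesicular gland, and the limma test of the breed by gland interaction over all 5 glands gave an adjusted p of 0.56. The median over all genes moved the same way, 0.23 in the prostate gland and -0.27 in the vesicular gland, and with median-of-ratios scaling, where both medians were 0, the SERPINB8 differences were 0.32 and -0.32. For SERPINF2 the difference was 1.15 in the testis and -0.52 in the bulbourethral gland, with an interaction adjusted p of 0.71. The difference between those 2 glands alone was not tested. Over all genes 22.9% did not overlap between breeds in the testis, 22.9% in the vesicular gland, 31.5% in the prostate gland and 9.63% in the bulbourethral gland.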

How the results depend on the processing

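With Ensembl transcripts alone, 1 member was higher and 4 lower in the testis, 5 higher and 0 lower in the epididymis, 1 higher and 3 lower in the vesicular gland, 2 lower in the prostate gland, and 46 in place of 77 tests between pairs of glands were called. SERPINA1 in the bulbourethral gland then turned from 2.22 to -1.39, and the isoform of its upstream copy is among the transcripts left out. With a pseudocount of 0.1, 2 members were lower in the epididymis, and 4 were higher and 10 lower in the vesicular gland. With size factors, 3 were lower in the epididymis, and 4 were higher and 3 lower in the vesicular gland. With SERPINA1 split by copy, an alternative chosen after seeing the data, 2 were lower in the epididymis, 2 higher in the prostate gland and 5 lower in the bulbourethral gland. In 1 fit for both breeds, 1 member, SERPINB11, was called in the epididymis. Iso-seq reads of members were 854.1 RPM outside the 10 most abundant isoforms, against 799. Leaving out 1 replicate number at a time gave 5 to 7 members higher and 1 to 2 lower in the epididymis, 2 to 5 lower in the prostate gland, 1 to 3 lower in the bulbourethral gland, and 0 to 1 with an interaction (SERPINB11 without replicate 2, adjusted p = 8.1e-05). The cause of these changes was not tested. Of the values for single members, 614 kept their direction and side of the threshold, 40 lost the call and 1 reversed. Without DSE epididymis replicate 1 the counts by gland did not change, and without DSE testis replicate 2, BMI bulbourethral replicate 1 or DSE bulbourethral replicate 3, each chosen after seeing the data, the only change was from 6 to 5 lower in the vesicular gland (SERPINH1), without the first and the last of these.

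The labels do not say that the replicate number pairs the samples. Correlations of deviations between same-numbered libraries passed 0.1 in 4 of 15 pairs between breeds and 21 of 60 between glands. All 3 same-numbered pairs passed it in 0 of 5 sets between breeds and in 2 of 20 between glands, both of DSE: epididymis and vesicular gland (0.39, 0.37 and 0.23) and testis and vesicular gland (0.29, 0.25 and 0.15). With the block, 14 and 9 members were called in those 2 pairs of glands, as without it. With the replicate block the members higher and lower were 3 and 7 in the testis, 8 and 1 in the epididymis, 2 and 6 in the vesicular gland, 1 and 4 in the prostate gland, and 4 and 3 in the bulbourethral gland, with 0 between breeds, 0 with an interaction and 76 between pairs of glands.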
